A study of Saccharomyces cerevisiae with 28 samples.

Results

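Wild-type budding yeast grown in rich medium with ethanol and glycerol (YPEG) was compared with the same strain in rich medium with glucose (YPD), across all open reading frames (ORFs). The libraries were chosen by their labels, as the 2 labelled WT-YPEG and the 2 labelled WT-YPD, which are 4 of the 28 libraries of the series. The cells were BY4741, a haploid laboratory strain derived from S288C with mating type MATa, and carried the wild-type alleles of the genes that the study altered. The series was made to study histone H3 and copper, and WT libraries served as its controls. Per the labels, cultures started at an OD600 of 0.2 and were harvested in exponential growth after 3 to 4 population doublings. Poly(A)+ RNA was sequenced, and the authors deposited raw counts and RPKM (reads per kilobase of ORF, scaled to library size) for 6692 ORFs. Both YPD libraries were made with the KAPA kit and both YPEG libraries with the Illumina TruSeq kit for NeoPrep. Medium and kit therefore cannot be told apart in this comparison. The nearest comparison within a kit is with the 3 WT libraries from synthetic complete glucose medium (SC), which were made with NeoPrep, started at an OD600 of 0.05 and grew for 5 doublings in exponential phase. SC and YPD differ in more than the kit, since SC is a defined medium. The same pair of media and kits was also used for the strain carrying histone H3 with the H113N change (H3H113N), with 2 libraries per medium.

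Budding yeast ferments glucose to ethanol even when oxygen is present, and glucose represses genes of respiration and of other carbon sources. On ethanol and glycerol the cells depend on mitochondrial respiration. Acetate made from ethanol enters the glyoxylate cycle and gluconeogenesis, the route that builds sugars from smaller molecules, while glycerol enters as a triose phosphate. The transcription factors Cat8, Sip4 and Adr1 act on genes of non-fermentable carbon use, and the Hap2/3/4/5 complex, which binds CCAAT, acts on respiratory genes. Cytochrome c oxidase, the terminal enzyme of the respiratory chain, contains copper and heme iron.

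Total counts were 4233996 and 5139834 in YPD and 5271063 and 2324113 in YPEG, and between 6484 and 6570 ORFs had at least 1 count. The strain lacks LEU2, MET17 and URA3, and none of the 4 libraries held a count of any of them. The 6 MATa markers took 0.114% and 0.113% of counts in YPD and 0.0392% and 0.0467% in YPEG, against at most 0.00776% for the 4 MATalpha markers, so the libraries match the labelled mating type. Replicates of a medium had rank correlations of 0.969 in YPD and 0.971 in YPEG. Some libraries stood apart in particular genes. WT-YPD replicate 1 had 234 RPKM of the heat shock gene HSP42 against 12.9 in replicate 2, and the iron regulon took 3.17% of counts in WT-YPEG replicate 1 against 0.605% in replicate 2. WT-SC replicate 3 had 5215 RPKM of HXK1, which encodes a hexokinase repressed by glucose, against 112 and 236 in the other SC libraries, so results against SC are given with and without it. With 2 libraries per group, and labels that do not state separate cultures, p-values measure only the spread between libraries. RNA per cell was not measured, so fewer cells with a transcript and less of it per cell cannot be told apart.

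Of 6592 ORFs tested, 1792 (27.2%) were called between YPEG and YPD at an edgeR adjusted p under 0.05. Of the tested ORFs, 921 (14.0%) were higher and 871 (13.2%) lower in YPEG. Counts of list members below are to be read beside these shares. Fold changes are log2 ratios of edgeR means after TMM scaling, which sets the bulk of ORFs near 0, and the median over all tested ORFs was 0.02. Among the called ORFs, 752 were at least 2-fold higher and 641 at least 2-fold lower. At 16-fold or more, 69 ORFs were higher and 18 lower. When libraries were scaled by their totals alone, as RPKM is, the median ORF moved to 0.58 and the split became 2088 higher and 356 lower. That shift applies to every RPKM value below: a ratio of RPKM, YPEG over YPD, lies above the fold change printed with it. Rises therefore look larger in RPKM, and falls smaller. In YPD the 10 ORFs with most counts took 11.5% and 13.1% of each library, against 6.38% and 6.46% in YPEG. The count of calls rested on having 2 libraries per group: without WT-YPD replicate 1 it was 1111, without WT-YPD replicate 2 it was 1010, without WT-YPEG replicate 1 it was 1036 and without WT-YPEG replicate 2 it was 1136.

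**Figure D1:**
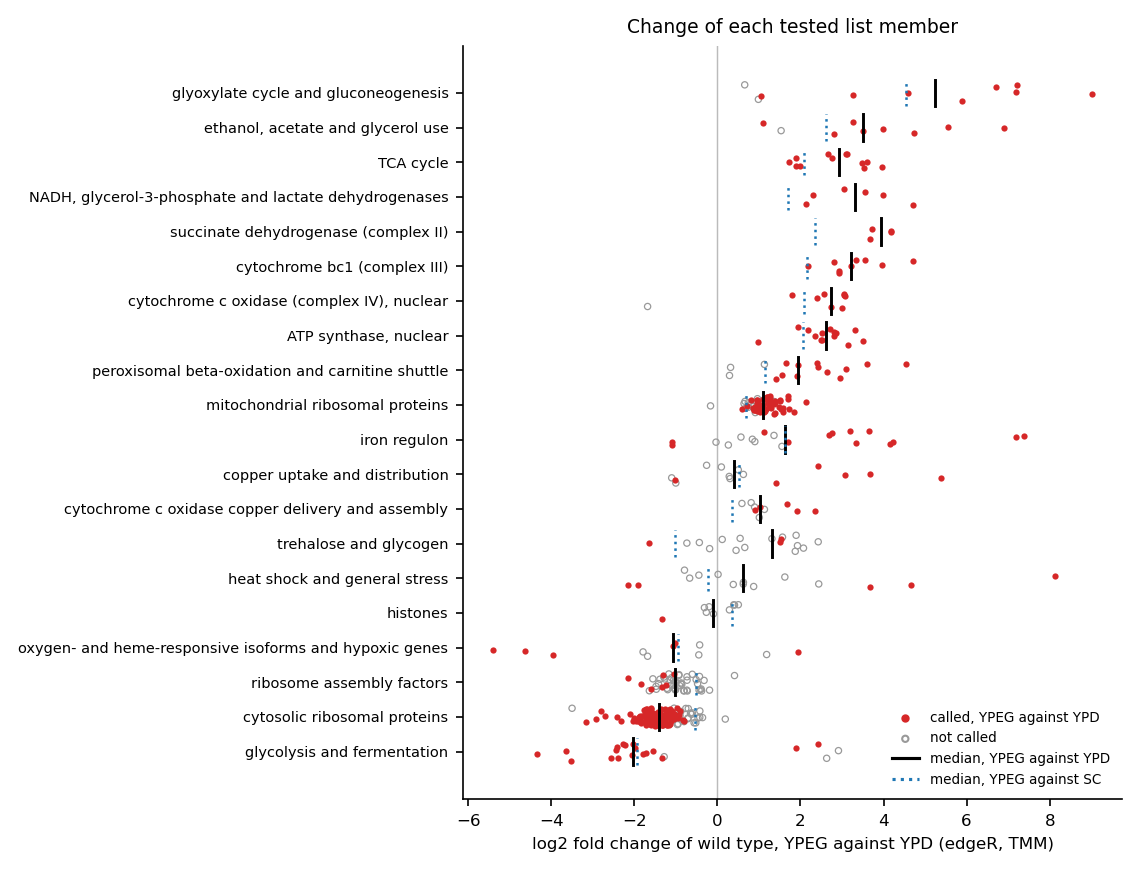
Log2 fold change in wild type, YPEG against YPD (edgeR with TMM scaling), of each tested member of 20 gene lists, with 1 point per ORF, filled red where called and open where not; the black line is the list's median, and the dotted blue line its median in YPEG against SC. Lists of respiration and gluconeogenesis lie to the right of 0, with medians up to 5.24, and glycolysis and the cytosolic ribosome lie to the left, with medians of −2.04 and −1.40.

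Genes of the glyoxylate cycle and of gluconeogenesis had the largest differences. Of 10 such genes, 8 rose and none fell, with a median log2 fold change of 5.24. PCK1 (YKR097W, chromosome XI, 631152 to 632801), which encodes the phosphoenolpyruvate carboxykinase that commits carbon to gluconeogenesis, had 1.86 and 1.53 RPKM in YPD and 1136 and 1442 RPKM in YPEG. Both YPEG libraries were far above both YPD libraries, and its log2 fold change of 9.02 (standard error 0.53, edgeR adjusted p 1.06e-08) was the largest of any called ORF that met the naming rule. FBP1 (YLR377C, chromosome XII, 873746 to 874792), the fructose-1,6-bisphosphatase, had 6.54 and 6.13 RPKM in YPD and 882 and 1066 in YPEG, a log2 fold change of 6.71 (standard error 0.53, edgeR adjusted p 2.63e-07). MLS1 (YNL117W, chromosome XIV, 406358 to 408022), the malate synthase of the glyoxylate cycle, had 3.26 and 2.34 RPKM in YPD and 789 and 438 in YPEG, a log2 fold change of 7.22. Isocitrate lyase, the other enzyme particular to that cycle, is encoded by ICL1, which was less tightly shut in YPD: it had 15.9 and 23.7 RPKM there and 795 and 639 in YPEG, a log2 fold change of 4.60. SFC1, the succinate-fumarate carrier of the mitochondrial membrane, had 1.95 and 1.41 RPKM in YPD and 384 and 335 in YPEG. IDP2, the cytosolic NADP-dependent isocitrate dehydrogenase, had 6.48 and 5.65 RPKM in YPD and 545 and 503 in YPEG. In each of these 6 genes the lower YPEG library exceeded the higher YPD library by more than an order of magnitude. The genes not called were CIT2 and MDH2, the peroxisomal citrate synthase and the cytosolic malate dehydrogenase, with log2 fold changes of 0.99 (edgeR adjusted p 0.134) and 0.66 (edgeR adjusted p 0.319). As a share of counts, the 10 genes rose from 0.0307% ± 0.000416 (SD, n = 2) to 0.720% ± 0.00930 (n = 2).

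Promoters were searched for the carbon source response element known for Cat8 and Sip4, as CC and CCG with any 6 bases between them. Stretches are printed for PCK1, FBP1 and MLS1, the key enzymes of the 2 routes described first, which all hold matches. Each is 240 bases on the coding strand, 5′ to 3′, from the RefSeq genome of assembly R64, and capitals mark matches on either strand, with overlapping matches run together. The PCK1 stretch is chrXI:630564-630803 on the plus strand, from 588 to 349 bases before the start codon, with 3 matches. The FBP1 stretch is chrXII:875132-875371 on the minus strand, from 579 to 340 bases before it, with 3 matches. The MLS1 stretch is chrXIV:405766-406005 on the plus strand, from 592 to 353 bases before it, with 6 matches.
PCK1: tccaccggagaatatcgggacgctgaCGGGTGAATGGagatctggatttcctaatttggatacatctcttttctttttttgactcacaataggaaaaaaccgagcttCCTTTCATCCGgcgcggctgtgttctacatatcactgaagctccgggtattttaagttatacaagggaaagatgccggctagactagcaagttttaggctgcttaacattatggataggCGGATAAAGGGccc
FBP1: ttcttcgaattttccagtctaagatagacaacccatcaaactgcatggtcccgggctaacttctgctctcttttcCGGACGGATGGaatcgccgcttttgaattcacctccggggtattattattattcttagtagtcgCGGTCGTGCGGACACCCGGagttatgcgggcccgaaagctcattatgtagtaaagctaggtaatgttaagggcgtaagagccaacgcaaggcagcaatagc
MLS1: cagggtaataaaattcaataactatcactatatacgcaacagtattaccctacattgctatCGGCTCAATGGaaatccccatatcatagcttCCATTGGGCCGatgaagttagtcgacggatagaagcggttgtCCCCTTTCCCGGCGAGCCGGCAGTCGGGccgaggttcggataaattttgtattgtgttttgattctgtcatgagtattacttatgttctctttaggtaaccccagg
In the 600 bases before the start codon, 9 of the 10 genes of the list (90%) held at least 1 match, against 1467 of 5947 ORFs (24.7%). Cat8 and Sip4 are known for genes of these routes, so this share is no independent finding. A match is a description of the letters and not a site of binding.

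Genes that bring the carbon sources into the cell and into metabolism rose as well, with 8 of 9 called higher and a median of 3.51. JEN1, a lactate and pyruvate transporter, had 6.38 and 4.84 RPKM in YPD and 1117 and 856 in YPEG, and its log2 fold change was 6.91 (SE 0.85, edgeR adjusted p 3.53e-05). STL1, the glycerol-proton symporter, had 3.18 and 3.75 RPKM in YPD and 190 and 86.6 in YPEG, where replicate 1 was the higher: the log2 fold change of 4.73 was 4.13 without WT-YPEG replicate 1. GUT1 and GUT2, the glycerol kinase and the mitochondrial glycerol-3-phosphate dehydrogenase, rose by 2.80 and 3.98 on the log2 scale. ALD4, the mitochondrial aldehyde dehydrogenase that makes acetate, had 45.9 and 21.2 RPKM in YPD and 1979 and 2490 in YPEG, a log2 fold change of 5.54 that was 6.19 without WT-YPD replicate 1. The acetyl-CoA synthetase ACS1 and the acetate transporter ADY2 rose by 3.27 and 3.51. ADY2 was at 2.77 without WT-YPEG replicate 2, in which it had 72.7 RPKM against 33.0. ADH2, the alcohol dehydrogenase that oxidises ethanol, was already at 549 and 761 RPKM in YPD and reached 1733 and 2430 in YPEG. Its log2 fold change of 1.11 barely passed (edgeR adjusted p 0.0496) and was not called without any 1 of the 4 libraries, and 86.0% of its 50-base windows are unique in the genome because ADH1 is similar.

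**Figure D2:**
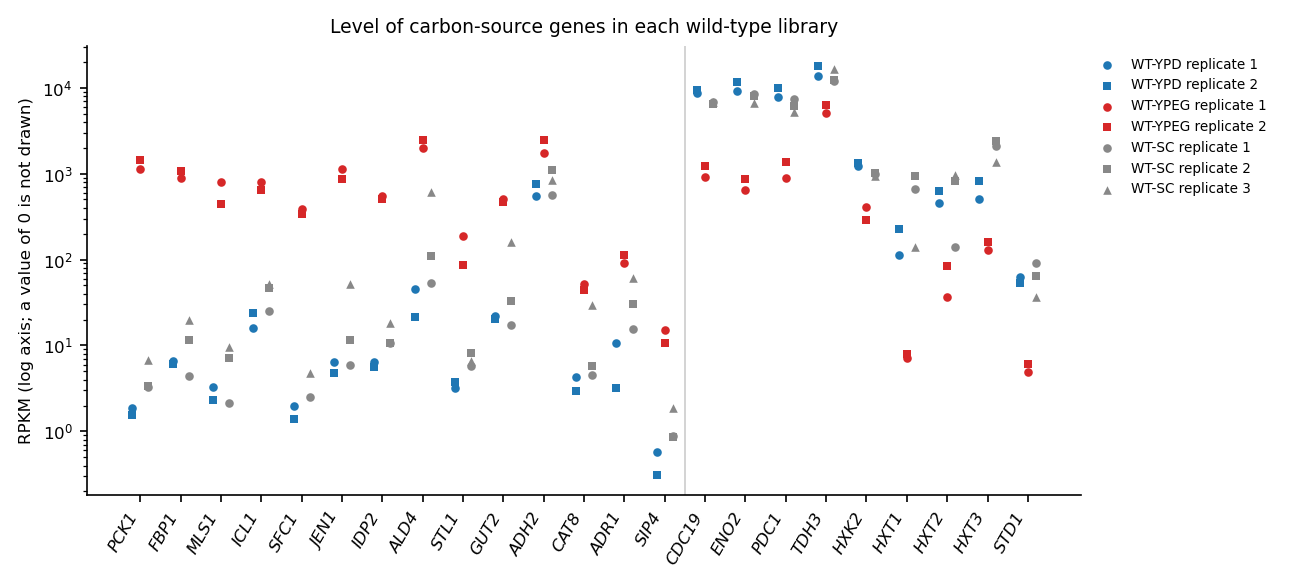
RPKM (log axis) of 23 carbon-source genes in each wild-type library, blue for YPD, red for YPEG and grey for SC, with the shape giving the replicate; genes left of the grey line were higher in YPEG and those to the right lower. PCK1 was at 1.86 and 1.53 RPKM in YPD, 1136 and 1442 in YPEG, and at most 6.79 in SC.

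The tricarboxylic acid (TCA) cycle rose as a block: all 12 nuclear genes were called higher, with a median of 2.93, and their summed share went from 0.166% ± 0.00978 (SD, n = 2) to 1.69% ± 0.0583 (n = 2). CIT1, the mitochondrial citrate synthase, had 60.4 and 42.8 RPKM in YPD and 1105 and 1219 in YPEG, a log2 fold change of 3.96 (standard error 0.81, edgeR adjusted p 0.00174). MDH1, the mitochondrial malate dehydrogenase, had 101 and 109 RPKM in YPD and 1996 and 1734 in YPEG. LPD1 was the least changed, at 1.73, and encodes the dihydrolipoamide dehydrogenase that several enzyme complexes share. ACO1, the aconitase, was called at 1.89 (edgeR adjusted p 0.0368), but not without any 1 of the 4 libraries. All 6 mitochondrial dehydrogenases that feed electrons from NADH, glycerol 3-phosphate and lactate into the chain rose, with a median of 3.31. Among them CYB2, the L-lactate cytochrome c oxidoreductase, had 9.18 and 4.49 RPKM in YPD and 217 and 290 in YPEG, a log2 fold change of 4.70 that was 5.28 without WT-YPD replicate 1. The external NADH dehydrogenase NDE2 lost its call without any 1 of the 4 libraries, and the internal one, NDI1, was at 3.56, lost its call without WT-YPD replicate 2 and was at 4.19 without WT-YPD replicate 1.

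Of 38 nuclear genes for complexes II to V and cytochrome c, 36 rose and none fell, with a median of 2.89. Together they took 0.270% and 0.288% of counts in YPD and 2.54% and 3.35% in YPEG, and the 95% counting intervals of these shares (Wilson) extended at most 0.0231 percentage points to either side of their midpoints. All 4 subunits of succinate dehydrogenase (complex II) rose, with a median of 3.95. SDH2, its iron-sulphur subunit, had 48.7 and 27.7 RPKM in YPD and 550 and 1417 in YPEG. Its log2 fold change was 4.18 and fell to 3.26 without WT-YPEG replicate 2, and SDH4, at 3.72, lost its call without WT-YPD replicate 2 and was at 3.04 without WT-YPEG replicate 2. All 9 genes of the cytochrome bc1 complex rose, with a median of 3.23 and the small subunit QCR10 highest at 4.71 (SE 0.56, edgeR adjusted p 2.61e-05). QCR10 had 32.3 and 21.6 RPKM in YPD and 856 and 1192 in YPEG. Of 9 nuclear genes for cytochrome c oxidase, 8 rose, with a median of 2.74. COX6, one of its nuclear subunits, had 105 and 74.9 RPKM in YPD and 833 and 1328 in YPEG, a log2 fold change of 3.06 (standard error 0.47, edgeR adjusted p 0.000247). All 14 nuclear genes of ATP synthase rose, with a median of 2.62 and a range from 0.97 for ATP19 to 3.50 for ATP15. ATP19 was not called without WT-YPD replicate 2 or without either YPEG library, and COX9 not without WT-YPD replicate 2 or WT-YPEG replicate 2. CYC1, the main cytochrome c, had 48.0 and 69.0 RPKM in YPD and 627 and 1408 in YPEG, and its log2 fold change of 3.57 was 2.80 without WT-YPEG replicate 2. The members that were not called are COX5B and CYC7, the isoforms known for low oxygen.

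Promoter stretches of QCR8, a subunit of complex III, and of COX6 show the CCAAT motif of respiratory genes, in capitals on either strand. The QCR8 stretch is chrX:106062-106301 on the plus strand of R64, from 372 to 133 bases before the start codon, with 2 matches. The COX6 stretch is chrVIII:209305-209544 on the plus strand, from 400 to 161 bases before it, with 3 matches.
QCR8: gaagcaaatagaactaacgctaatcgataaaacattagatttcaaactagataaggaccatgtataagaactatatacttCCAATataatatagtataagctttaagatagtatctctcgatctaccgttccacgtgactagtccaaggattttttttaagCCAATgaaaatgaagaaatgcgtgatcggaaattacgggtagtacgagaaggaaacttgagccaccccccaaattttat
COX6: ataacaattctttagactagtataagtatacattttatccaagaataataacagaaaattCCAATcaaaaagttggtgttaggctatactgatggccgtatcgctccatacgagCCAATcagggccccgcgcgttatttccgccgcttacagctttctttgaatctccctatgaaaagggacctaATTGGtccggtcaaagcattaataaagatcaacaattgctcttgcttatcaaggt
In 600-base windows, 36 of the 38 genes (94.7%) held CCAAT on either strand, but so did 4179 of 5947 ORFs (70.3%), since a motif of 5 bases is common.
QCR8 itself had 131 and 78.5 RPKM in YPD and 664 and 1431 in YPEG, a log2 fold change of 2.81 that was 2.08 without WT-YPEG replicate 2.

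The mitochondrial genome encodes further subunits of these complexes, but its transcripts were nearly absent from these poly(A)+ libraries. ORFs of the mitochondrial genome took between 0.000389% and 0.0111% of counts, and only 2 of the 8 listed, COX1 and OLI1, passed the filter. COX1 had 13.2 and 0.121 RPKM in YPD and 0.355 and 0.804 in YPEG, so the YPD libraries differed from each other by more than the media did, and no change could be measured.

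Several enzymes exist as isoforms used under different conditions, and the balance within such pairs moved. COX5A and COX5B encode exchangeable forms of a cytochrome c oxidase subunit, used in air and at low oxygen. The ratio of COX5A to COX5B RPKM was 1.66 and 4.94 in YPD and 56.3 and 86.5 in YPEG. COX5A rose by 3.07, while COX5B was at −1.68 (edgeR adjusted p 0.233). PET9 and AAC3 encode the main and the low-oxygen ADP/ATP carrier, and their ratio was 5.41 and 15.9 in YPD and 1237 and 1860 in YPEG. PET9 rose by 3.24, which was 4.00 without WT-YPD replicate 2, and AAC3 fell by 3.95. Both groups were separated without overlap in each ratio. The ratio of the mitochondrial superoxide dismutase SOD2 to the cytosolic copper enzyme SOD1 was 0.284 and 0.217 in YPD and 0.904 and 0.984 in YPEG. The ratio of HXK1 to HXK2, the glucose-repressed and the main hexokinase, was 0.0600 and 0.0217 in YPD and 1.202 and 2.11 in YPEG. In SC it was 0.112 and 0.231 in replicates 1 and 2 and 5.57 in replicate 3, the library that stood apart. The ratio of ALD4 to ALD6, the mitochondrial and the cytosolic aldehyde dehydrogenase, was 0.218 and 0.0626 in YPD and 1.92 and 1.88 in YPEG.

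**Figure D3:**
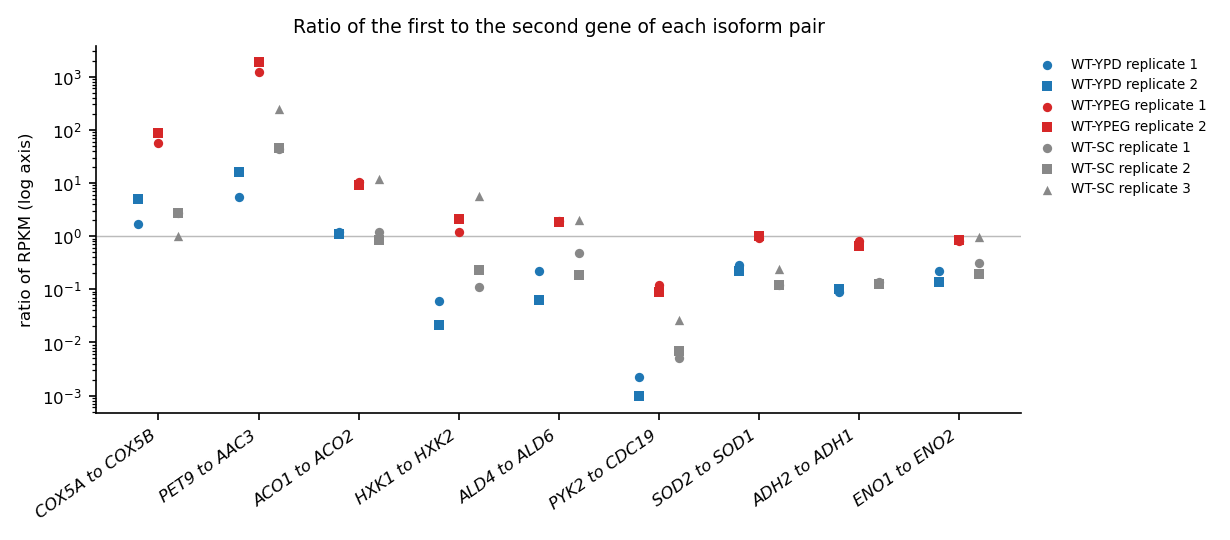
Ratio of RPKM (log axis) of the first to the second gene of 9 isoform pairs in each wild-type library, blue for YPD, red for YPEG and grey for SC, with the shape giving the replicate; the grey line marks equal RPKM. The red points lie above the blue points in all 9 pairs, with PET9 to AAC3 at 1237 and 1860 in YPEG against 5.41 and 15.9 in YPD.

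Of 11 genes known to respond to oxygen or heme, 1 rose and 5 fell. TIR1, a cell wall mannoprotein of cold and low oxygen, had 269 and 130 RPKM in YPD and 9.18 and 14.6 in YPEG, a log2 fold change of −4.63 (standard error 0.68, edgeR adjusted p 0.000155), and −4.03 without WT-YPD replicate 1. ANB1, the low-oxygen form of the translation factor eIF5A, had 155 and 29.6 RPKM in YPD and 3.20 and 2.72 in YPEG. It was at −5.40, and was not called without WT-YPD replicate 1, at −3.81, nor without WT-YPEG replicate 1, at −5.48, and was at −6.12 without WT-YPD replicate 2. ROX1, the heme-dependent repressor of hypoxic genes, had 64.01 and 56.9 RPKM in YPD and 496 and 194 in YPEG, a log2 fold change of 1.94 that was 1.19 and not called without WT-YPEG replicate 1. AAC3, described above, also fell. HMG2 and TIR3 were at −1.08 and −1.02 and lost their calls without any 1 of the 4 libraries and when libraries were scaled by totals. The list's count was 0 or 1 higher and 2 or 3 lower without any 1 library. Of 8 heme synthesis genes, HEM2 rose, at 0.95, and HEM13, which is known to be repressed by heme, fell by 1.97. These calls are 25% of the list, near the 27.2% of all ORFs. Neither call held without WT-YPD replicate 1, HEM2 was also lost without WT-YPEG replicate 2 and HEM13 without WT-YPEG replicate 1.

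Copper enters the cell as the reduced ion, and cytochrome c oxidase receives it through dedicated carriers. Of 14 genes of copper uptake and distribution, 5 rose and 1 fell, with a median of 0.40. CTR1, the high-affinity copper transporter, had 20.3 and 80.6 RPKM in YPD and 1414 and 588 in YPEG. The YPEG libraries were both higher but the replicates of each medium differed, and its log2 fold change of 3.68 (standard error 0.65, edgeR adjusted p 0.000763) was 3.07 without WT-YPD replicate 1, 5.14 without WT-YPD replicate 2 and 2.99 without WT-YPEG replicate 1. FRE7, a metalloreductase of low copper, had 2.79 and 3.55 RPKM in YPD and 300 and 98.8 in YPEG. Its log2 fold change was 5.38 (SE 0.48, edgeR adjusted p 1.06e-06), and 4.44 without WT-YPEG replicate 1. FRE1, a reductase of copper and iron, rose by 2.42, with 19.4 and 59.1 RPKM in YPD and 534 and 116 in YPEG. Without WT-YPEG replicate 1 it was at 1.01 and not called, nor was it without WT-YPD replicate 1, at 1.88, and it was 3.57 without WT-YPD replicate 2 and 3.11 without WT-YPEG replicate 2. CTR2, the vacuolar copper transporter, and CCC2, which loads copper into the secretory pathway, rose by 1.41 and 3.07, the latter 1.41 without WT-YPEG replicate 1 and 3.82 without WT-YPEG replicate 2. CCS1, the copper chaperone of SOD1, fell from 213 and 187 RPKM to 140 and 149, a log2 fold change of −1.02 that was not called without WT-YPD replicate 1, without WT-YPEG replicate 1 or when libraries were scaled by totals. SOD1 was not called, at 0.10 (edgeR adjusted p 0.865). The metallothionein genes CUP1-1 and CUP1-2 were not called, at −1.001 (edgeR adjusted p 0.462) and −1.10 (edgeR adjusted p 0.415). They cannot be told apart from each other, since no 50-base window of either is unique, and CUP1-1 had 909 and 132 RPKM in the YPD libraries. Of 10 genes for copper delivery to and assembly of cytochrome c oxidase, 5 rose and none fell, with 3 higher without either YPD library and 9 when libraries were scaled by totals. COX19, PET100 and COX11 rose by 2.35, 1.93 and 1.03, whereas COX17 and SCO1, which carry and insert the copper, were at 0.81 (edgeR adjusted p 0.201) and 0.90 (edgeR adjusted p 0.274).

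Iron regulon genes together took 0.201% and 0.103% of counts in YPD and 3.17% and 0.605% in YPEG, with the larger YPEG share in replicate 1. Of 20 genes of the iron regulon, 11 rose and 2 fell, with a median of 1.63, but without WT-YPEG replicate 1 the count was 5 higher and 1 lower. Without WT-YPD replicate 1 it was 10 and 0, without WT-YPD replicate 2 it was 7 and 2, and without WT-YPEG replicate 2 it was 11 and 0. Scaled by totals it was 14 and 0. FIT3 (YOR383C, chromosome XV, 1060441 to 1061055), a cell wall mannoprotein that retains siderophore iron, had 49.2 and 64.5 RPKM in YPD and 24659 and 4326 in YPEG. Its log2 fold change was 7.39 (SE 0.99, edgeR adjusted p 7.00e-05), 5.74 without WT-YPEG replicate 1 and 8.14 without WT-YPEG replicate 2. FIT2 (YOR382W, chromosome XV, 1059531 to 1059992), a neighbour of the same kind, had 22.0 and 26.95 RPKM in YPD and 9739 and 1218 in YPEG. Its log2 fold change was 7.20, 5.12 without WT-YPEG replicate 1 and 8.02 without WT-YPEG replicate 2. The siderophore transporters ARN1 and ARN2 rose by 4.23 and 4.16, which were 2.15 and 1.72 without WT-YPEG replicate 1 and 5.04 and 5.02 without WT-YPEG replicate 2. The mRNA-binding protein gene TIS11, which promotes decay of mRNAs of iron-using proteins, rose by 3.20 and was not called without WT-YPEG replicate 1, at 1.31, or without WT-YPD replicate 2, at 2.61. It was 4.28 without WT-YPD replicate 1 and 3.98 without WT-YPEG replicate 2. FET3 and FTR1, the high-affinity iron oxidase and permease, were not called, at 1.55 (edgeR adjusted p 0.114) and 1.36 (edgeR adjusted p 0.0829). FET4 and FRE4, a low-affinity transporter and a reductase, fell by 1.09 and 1.08 and were not called without WT-YPD replicate 1, without WT-YPEG replicate 2 or when libraries were scaled by totals.

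The promoters of FIT2 and FIT3 hold several copies of TGCACCC, the core of the element known for the iron-responsive factors Aft1 and Aft2. Capitals mark it on either strand. The FIT2 stretch is chrXV:1059167-1059406 on the plus strand of R64, from 364 to 125 bases before the start codon, with 4 matches. The FIT3 stretch is chrXV:1061176-1061415 on the minus strand, from 360 to 121 bases before it, with 2 matches.
FIT2: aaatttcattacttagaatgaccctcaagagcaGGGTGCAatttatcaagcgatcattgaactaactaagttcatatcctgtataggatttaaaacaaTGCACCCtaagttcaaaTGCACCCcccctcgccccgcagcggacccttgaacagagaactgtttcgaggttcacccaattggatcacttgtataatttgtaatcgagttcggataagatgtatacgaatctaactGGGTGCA
FIT3: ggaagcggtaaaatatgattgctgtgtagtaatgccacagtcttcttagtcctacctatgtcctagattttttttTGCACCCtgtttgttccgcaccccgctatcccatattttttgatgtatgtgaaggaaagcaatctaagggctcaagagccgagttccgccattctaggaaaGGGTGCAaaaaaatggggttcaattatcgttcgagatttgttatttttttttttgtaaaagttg
In 600-base windows, 18 of the 20 genes of the list (90%) held TGCACCC on either strand, against 158 of 5947 ORFs (2.66%). The list was compiled from genes known to respond to these factors, so this share is no independent finding.

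Glycolysis and fermentation took 9.98% and 11.1% of all counts in YPD and 2.47% and 3.20% in YPEG. Of 21 genes, 16 fell and 2 rose, with a median of −2.04. CDC19 (YAL038W, chromosome I, 71786 to 73288), the main pyruvate kinase, had 8766 and 9370 RPKM in YPD and 902 and 1232 in YPEG, a log2 fold change of −3.64 (standard error 0.41, edgeR adjusted p 1.60e-05). PDC1 (YLR044C, chromosome XII, 232390 to 234081), the main pyruvate decarboxylase and the entry to fermentation, had 7839 and 9828 RPKM in YPD and 891 and 1353 in YPEG, a log2 fold change of −3.53. ENO2, the glucose-induced enolase, had 9240 and 11691 RPKM in YPD and 647 and 866 in YPEG, a log2 fold change of −4.35 (standard error 0.44, edgeR adjusted p 4.83e-06). Only 76.4% of its 50-base windows are unique because of its close copy ENO1, which was at −2.06 and lost its call without any 1 of the 4 libraries and when libraries were scaled by totals. TDH3, the main glyceraldehyde-3-phosphate dehydrogenase and a member of a family with shared sequence, fell by 2.04 and still had 5087 and 6290 RPKM in YPEG. HXK2, the main hexokinase, fell by 2.44. The 2 that rose were the minor isoforms PYK2 and PDC6, at 2.42 and 1.90, and PYK2 was called in the absence of WT-YPD replicate 1 only and PDC6 in the absence of WT-YPD replicate 2 only. HXK1 and GLK1, glucose kinases repressed by glucose, were at 2.91 (edgeR adjusted p 0.174) and 2.63 (edgeR adjusted p 0.119). The libraries of each medium lay apart for both genes, with 73.2 and 29.0 RPKM of HXK1 in YPD and 489 and 608 in YPEG, but the fitted spread was wide.

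Of 19 hexose transporters and glucose sensors, 7 rose and 3 fell. The 3 that fell were the low- and high-affinity transporters used on glucose. HXT1 (YHR094C, chromosome VIII, 290913 to 292625), induced by much glucose, had 112 and 226 RPKM in YPD and 7.09 and 8.04 in YPEG, a log2 fold change of −5.07 (standard error 0.81, edgeR adjusted p 0.000314) that was −4.35 without WT-YPD replicate 2. HXT3, also of low affinity, fell by 2.79, from 510 and 824 RPKM to 129 and 158. HXT2, of high affinity, fell by 3.72, from 455 and 623 RPKM to 36.8 and 83.4, and was not called without WT-YPD replicate 2, at −3.36, or without WT-YPEG replicate 1, at −3.21; it was −4.49 without WT-YPEG replicate 2. HXT6 and HXT7, whose sequences are nearly the same, were at 3.06 (edgeR adjusted p 0.0906) and 3.01 (edgeR adjusted p 0.100). SNF3, the sensor of low glucose, rose by 1.60, and was not called without WT-YPD replicate 2 or WT-YPEG replicate 2. The other 6 risers, HXT5, HXT9, HXT10, HXT13, HXT15 and HXT16, reached between 5.24 and 29.0 RPKM in YPEG, and HXT15 and HXT16 are close copies. Without WT-YPD replicate 2 the list had 3 higher, and 4 without WT-YPEG replicate 2. Scaled by totals it had 11 higher and 3 lower.

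Among 18 regulators of carbon source use, 6 rose and 2 fell. CAT8, the activator of gluconeogenic genes, had 4.34 and 2.94 RPKM in YPD and 51.9 and 43.9 in YPEG, a log2 fold change of 3.18 (standard error 0.80, edgeR adjusted p 0.00658) that was not called without WT-YPD replicate 2, at 3.00. SIP4, its partner at the same element, had 0.569 and 0.313 RPKM in YPD and 15.2 and 10.7 in YPEG, a log2 fold change of 4.33. ADR1, the activator of ADH2 and of peroxisomal genes, rose by 3.38, which was 4.45 without WT-YPD replicate 1. HAP3 and HAP4 rose by 1.89 each, and HAP4, the regulated subunit of the complex, was not called without WT-YPD replicate 2 or without either YPEG library, and was at 2.85 without WT-YPD replicate 1. STD1, which acts in glucose sensing, fell from 61.9 and 53.3 RPKM to 4.97 and 6.12, a log2 fold change of −3.94 (standard error 0.41, edgeR adjusted p 5.34e-06). Its paralogue MTH1 moved the other way, at 2.13 (edgeR adjusted p 0.0454), and lost that call without any 1 of the 4 libraries. SNF1, the kinase at the head of derepression, was not called, at −0.22 (edgeR adjusted p 0.662). Without any 1 library 1 of the 18 fell, and the count of rises was 5, 3, 4 and 4 without WT-YPD replicate 1, WT-YPD replicate 2, WT-YPEG replicate 1 and WT-YPEG replicate 2, in that order. Scaled by totals, 11 rose and 1 fell.

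Peroxisomal fatty acid oxidation and the carnitine shuttle, which also moves acetyl units into mitochondria, showed 12 of 15 genes higher and none lower, with a median of 1.94. YAT1, an outer mitochondrial carnitine acetyltransferase, had 2.52 and 4.62 RPKM in YPD and 77.1 and 53.0 in YPEG, and its log2 fold change of 3.59 was 4.22 without WT-YPD replicate 2. CRC1, the mitochondrial acetylcarnitine carrier, had 6 counts over both YPD libraries and 164 over both YPEG libraries, a ratio per total count of 33.7 with a counting interval from 15.2 to 93.3. FOX2, the multifunctional enzyme of beta-oxidation, rose by 3.10, from 6.20 and 5.61 RPKM to 65.3 and 82.5. These levels stayed well below those of the respiratory genes.

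Oxidant defence was mixed, with 5 of 20 genes higher and 3 lower, where 14.0% of all ORFs were higher and 13.2% lower. SOD2 had 208 and 233 RPKM in YPD and 1204 and 1497 in YPEG, a log2 fold change of 2.06 (standard error 0.54, edgeR adjusted p 0.00908), and was not called without WT-YPD replicate 1 or WT-YPEG replicate 2. PRX1, the mitochondrial peroxiredoxin, rose by 3.58 (SE 0.65, edgeR adjusted p 0.000822), from 31.3 and 35.1 RPKM to 625 and 546. CTA1, the peroxisomal catalase, rose by 1.65 and was not called without WT-YPEG replicate 2, at 0.88, whereas the cytosolic catalase CTT1 was at 0.31 (edgeR adjusted p 0.870). GPX2, a glutathione peroxidase, fell by 2.71, from 91.3 and 93.5 RPKM to 26.4 and 14.1. AHP1, a cytosolic peroxiredoxin, was at −2.45, with 837 and 2404 RPKM in YPD and 597 and 309 in YPEG; it was not called without WT-YPD replicate 2, at −1.36, without either YPEG library or when libraries were scaled by totals. The list had 2 higher and 3 lower without WT-YPD replicate 1, 3 and 1 without WT-YPD replicate 2, 3 and 1 without WT-YPEG replicate 1, and 1 and 1 without WT-YPEG replicate 2. Scaled by totals it had 8 higher and 1 lower.

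General stress genes did not move as a group: 3 of 15 heat shock and stress genes rose and 2 fell. Over all ORFs, 14.0% rose and 13.2% fell. HSP12 (YFL014W, chromosome VI, 107256 to 107585), which encodes a membrane-protecting stress protein, had 26.5 and 4.72 RPKM in YPD and 6726 and 5558 in YPEG. Its log2 fold change of 8.13 (standard error 1.39, edgeR adjusted p 0.000473) was 9.78 without WT-YPD replicate 1 and 7.39 without WT-YPD replicate 2. DDR2 rose by 4.66, and by 5.52 without WT-YPD replicate 1. HSP26 was at 3.68, with 289 and 40.7 RPKM in YPEG, and was not called without either YPD library or without WT-YPEG replicate 1, where it was at 1.74, and it was at 4.46 without WT-YPEG replicate 2. The constitutive chaperone genes HSC82 and SSA2 fell by 1.90 and 2.15, though only 41.8% of the windows of SSA2 are unique. HSP104 and HSP42 were not called, at 0.38 (edgeR adjusted p 0.839) and −0.45 (edgeR adjusted p 0.859). HSP104 had 326 and 47.8 RPKM in the YPD libraries. Of 17 trehalose and glycogen genes, GLG2 and NTH2 rose, at 1.54 and 1.51, and PGM1 fell by 1.64. These calls are 17.6% of the list, below the 27.2% of all ORFs. NTH2 lost its call without any 1 of the 4 libraries and GLG2 without WT-YPD replicate 2, while 9 genes of the list were called higher when only the groups compared were fitted. That list took 0.218% and 0.102% of counts in the YPD libraries and 0.374% and 0.340% in the YPEG libraries.

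The cytosolic and the mitochondrial ribosome moved in opposite directions. Of 138 cytosolic ribosomal protein genes, 115 fell and none rose, with a median of −1.40, and their share of counts was 14.7% and 16.2% in YPD and 7.41% and 10.1% in YPEG. RPL29, of the large subunit, had 2055 and 1740.2 RPKM in YPD and 402 and 390 in YPEG, a log2 fold change of −2.81 (standard error 0.60, edgeR adjusted p 0.00232). RPS22B was the member with a positive value, at 0.19 (edgeR adjusted p 0.558). When libraries were scaled by totals, 68 fell and 1 rose, and the median was −0.85. The count of falls was 101 without WT-YPD replicate 1, 76 without WT-YPD replicate 2, 52 without WT-YPEG replicate 1 and 112 without WT-YPEG replicate 2. Many of these genes are paired copies, and reads could be split between them. Of 53 ribosome assembly factors 7 fell and none rose, with a median of −1.01, and without any 1 library the count was at most 2. It was 1 when libraries were scaled by totals and 34 when only the groups compared were fitted, and the share of the list called lower was close to the 13.2% of all ORFs. Of 66 mitochondrial ribosomal protein genes, 54 rose and none fell, with a median of 1.10 and shares of 0.217% and 0.221% in YPD and 0.670% and 0.726% in YPEG. MRPL39 rose most, by 2.14 (SE 0.30, edgeR adjusted p 9.41e-05), from 27.7 and 37.5 RPKM to 216 and 212. Their count was 41, 40, 47 and 30 without WT-YPD replicate 1, WT-YPD replicate 2, WT-YPEG replicate 1 and WT-YPEG replicate 2, in that order.

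**Figure D4:**
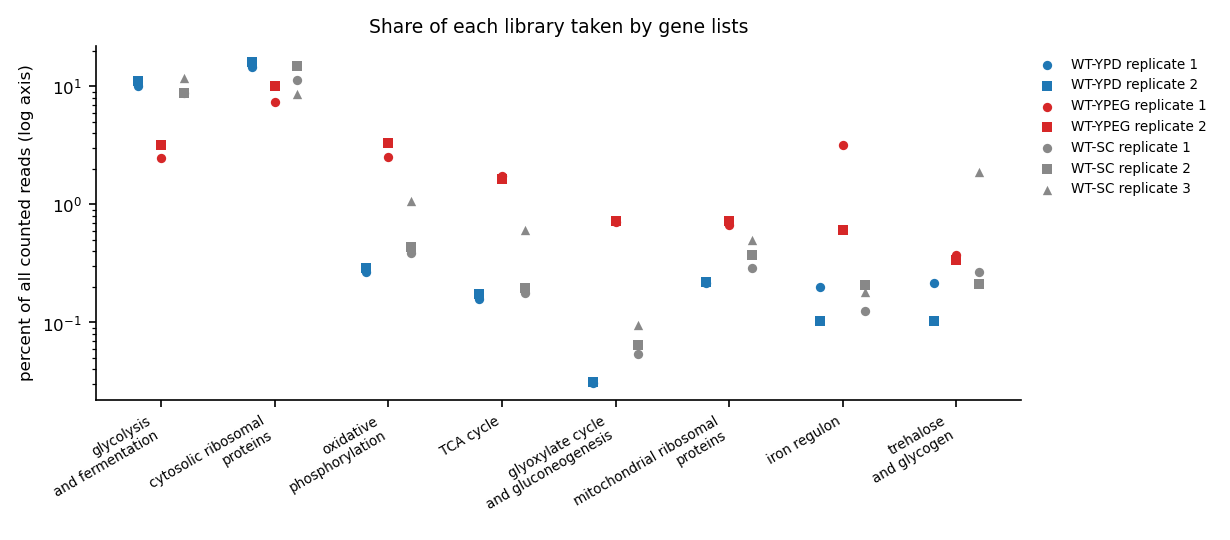
Percent of all counted reads (log axis) taken by each gene list in each wild-type library, blue for YPD, red for YPEG and grey for SC, with the shape giving the replicate. Glycolysis fell from 9.98% and 11.1% to 2.47% and 3.20%, oxidative phosphorylation rose from 0.270% and 0.288% to 2.54% and 3.35%, and the iron regulon differed between the YPEG libraries at 3.17% and 0.605%.

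Histone H3 is the subject of the series. Of 9 histone genes, HHT1, an H3 gene, fell by 1.34 (SE 0.26, edgeR adjusted p 0.00113), with 939.6 and 1001 RPKM in YPD and 572 and 555 in YPEG, and none rose. HHT2, which encodes the same protein, was at −0.27 (edgeR adjusted p 0.443), and 87.8% of the windows of each are unique. Of the histone list 11.1% was called, below the 27.2% of all ORFs. The median of the list was −0.09 and turned to 0.45 when libraries were scaled by totals, with 4 higher and 1 lower. Of the 6 MATa markers, 4 fell: the pheromone gene MFA2 by 3.39, the alpha-factor receptor gene STE2 by 2.50, the a-factor exporter gene STE6 by 1.67 and the protease gene BAR1 by 1.58. MFA2 was at −2.76 without WT-YPD replicate 1, STE6 was not called without either YPEG library, and BAR1 was not called without WT-YPD replicate 2, without either YPEG library or when libraries were scaled by totals. Of the 4 MATalpha markers, STE3 rose by 1.78 but reached only 13.3 and 8.83 RPKM.

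The naming rule took the 12 largest rises and 12 largest falls among called ORFs, and the rest of these are given here. DPA10 had 0 counts in both YPD libraries and 82.6 and 58.7 RPKM in YPEG. The YPEG mean was at least 28.9-fold higher against a floor of 3 counts per library. TYC1 also had 0 counts in YPD, with 9.49 and 57.4 RPKM in YPEG, from 6 and 16 counts. Its YPEG mean was at least 6.21-fold higher than the floor of 5.38 RPKM, which rests mainly on replicate 2. The call of TYC1 was lost without either YPD library or without WT-YPEG replicate 2. RGI2, a gene known for respiratory growth, had 3 counts over both YPD libraries and 567 in YPEG, a ratio of 233 with a counting interval from 79.4 to 1134. ECM13 rose by 6.25, from 2.75 and 3.02 RPKM to 537 and 128, and by 4.95 without WT-YPEG replicate 1 and 6.91 without WT-YPEG replicate 2. PRM7 fell most, from 147 and 166 RPKM to 3.89 and 2.87, a log2 fold change of −6.07 (standard error 1.18, edgeR adjusted p 0.00121). RRT15 was at −4.62, with 429.9 and 62.8 RPKM in YPD and 17.1 and 9.11 in YPEG, and was not called without WT-YPD replicate 1, at −2.71, and was at −5.40 without WT-YPD replicate 2. ARI1, an NADPH-dependent aldehyde reductase, fell from 62.9 and 57.8 RPKM to 7.45 and 4.53, a log2 fold change of −3.84 (standard error 0.30, edgeR adjusted p 2.63e-07). HIS4, of histidine synthesis, fell from 166 and 187 RPKM to 21.0 and 17.4, a log2 fold change of −3.76. INA1 fell by 3.73, and by 3.02 without WT-YPD replicate 2. Of these, TYC1, ECM13 and RRT15 differed most between libraries of a medium, while PRM7, ARI1 and HIS4 were even.

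Against SC, which shares the NeoPrep kit and the WT-YPEG libraries with the comparison above, 756 of 6592 ORFs (11.5%) were called, 445 (6.75%) higher and 311 (4.72%) lower in YPEG. The count rested on the other groups of the series, which share in the estimate of spread, and on single libraries: it was 64 when only the groups compared were fitted, 397 with only groups carrying wild-type H3, 323 without WT-YPEG replicate 1 and 379 without WT-YPEG replicate 2. Without WT-SC replicate 3 the counts were 1201 (18.2%), 694 (10.5%) and 507 (7.69%). With scaling by totals alone, and all 3 SC libraries, 619 were higher and 183 lower. Values against SC are set beside those against YPD because both rest on the same YPEG libraries, and no overlap is counted. PCK1 was at 7.999 against SC and 8.38 without replicate 3, beside 9.02 against YPD. The glyoxylate and gluconeogenic list had 7 of 10 higher (8 without replicate 3), the TCA cycle 11 of 12 (12) and the 38 oxidative phosphorylation genes 34 higher and 1 lower (36 and 0). Glycolysis had 1 of 21 higher and 15 lower (1 and 16). The iron regulon had 9 of 20 higher and none lower (11 and 0), and FIT3 was at 7.19 (7.89). CTR1 was at 3.63 (3.88), and the copper list had 4 of 14 higher (5). The ribosome lists differed more between the reference media: 7 of 138 cytosolic ribosomal protein genes fell against SC (42 without replicate 3), with a median of −0.53 (−0.73), beside 115 and −1.40 against YPD. Of the 66 mitochondrial ribosomal protein genes, 28 rose (44). HSP12 was at 3.46 (4.25) beside 8.13, since it had 355, 196 and 899 RPKM in SC. TIR1 was not called, at −0.57 (edgeR adjusted p 0.626), with 12.9, 12.9 and 19.8 RPKM in SC. ANB1 was not called, at −1.83 (edgeR adjusted p 0.435), nor without replicate 3, at −1.37 (edgeR adjusted p 0.577). RRT15 was at −0.14 (edgeR adjusted p 0.959), and at 0.63 without replicate 3 (edgeR adjusted p 0.798). For TIR1, ANB1 and RRT15 the high level was thus in YPD alone of these media, where KAPA was used. The part of the kit in them cannot be told apart from that of the medium. In ANB1 and RRT15 the high level lay mainly in WT-YPD replicate 1, with 155 and 429.9 RPKM against 29.6 and 62.8 in replicate 2.

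The H3H113N strain, grown in the same media with the same kits but in other libraries, gave 1710 calls of 6592 ORFs (25.9%), 821 (12.5%) higher and 889 (13.5%) lower in YPEG, or 1593 and 476 with scaling by totals alone. Of ORFs higher in wild type, 604 were also called higher in H3H113N, which is 65.6% of the 921 and 73.6% of the 821. Of those lower, 644 were called lower in both, 73.9% of the 871 and 72.4% of the 889, and none was called in opposite directions. Across 6270 ORFs with a mean of at least 10 RPKM in one of the 4 groups, Pearson's r of the log2 fold changes was 0.886 and Spearman's rho 0.872. These describe ORFs, which are not independent replicates, and the confounding of kit with medium is shared by both strains. In YPD, libraries with the same replicate number also moved together across strains: the difference between replicates correlated at 0.654, over 6592 ORFs. The same correlation in YPEG was low, at 0.124, beside 0.157 and 0.179 between media. In YPD, for example, RRT15 had 429.9 and 62.8 RPKM in wild type and 493 and 67.8 in H3H113N, and ANB1 had 155 and 29.6 in wild type and 175 and 23.9 in H3H113N. In YPEG, despite the low correlation, the iron regulon took 3.17% and 0.605% of counts in wild type and 1.37% and 0.504% in H3H113N. Agreement between the strains therefore includes what such libraries share, and its part was not tested. The test of the difference between the strains called 0 ORFs with edgeR, with 210 at an unadjusted p under 0.05. DESeq2 called 1, with 239 unadjusted. If no ORF differed, 329.6 of the 6592 would be expected under that unadjusted threshold. The smallest edgeR adjusted p was 0.515. With the replicate number as a block within each medium, a fit added after seeing the data, edgeR again called 0, with 202 unadjusted. PCK1 was at 8.13 in H3H113N beside 9.02, SDH2 at 4.29 beside 4.18, CTR1 at 3.75 beside 3.68 and STD1 at −2.67 beside −3.94. None of these 4 differences was called. Some named genes lay further apart, with HSP12 at 4.63 in H3H113N beside 8.13. PRM7 was at −2.67 beside −6.07 and HXT2 at −0.26 beside −3.72. In H3H113N neither PRM7 (edgeR adjusted p 0.0538) nor HXT2 (edgeR adjusted p 0.857) was called. The differences between strains in HSP12, PRM7 and HXT2 were not called either. The median of the glycolysis list was −1.30 in H3H113N beside −2.04 in wild type. The difference in this median was not tested.

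**Figure D5:**
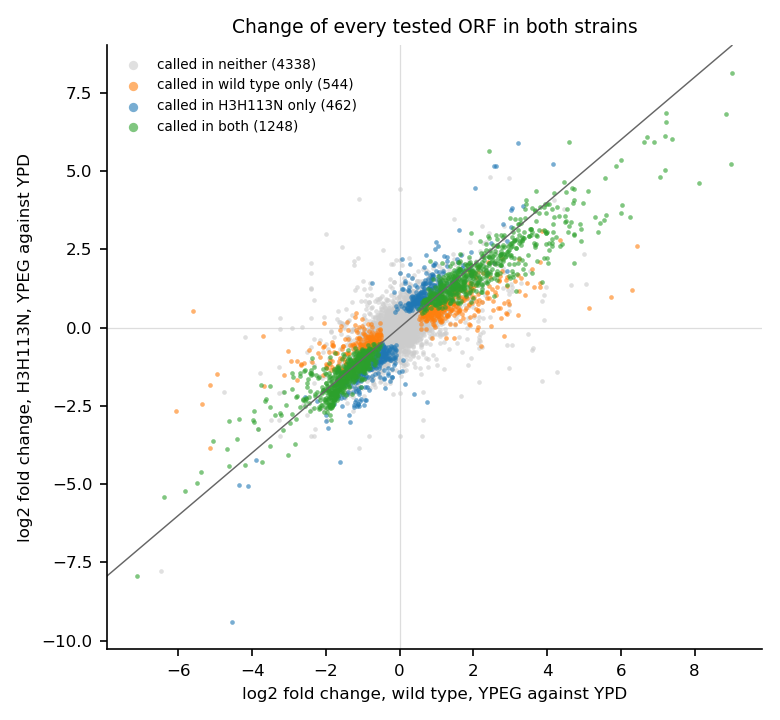
Log2 fold change of each of 6592 tested ORFs, YPEG against YPD, in wild type (x axis) and in H3H113N (y axis); colours give the strain or strains in which the ORF was called, and the line marks equal change. Of these ORFs, 1248 were called in both strains, 544 in wild type only and 462 in H3H113N only, and the test of the difference called 0.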

How the data were processed

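Poly(A)+ RNA of budding yeast was sequenced as single-end reads with stranded kits, and strand was not used, per the labels' protocols. Reads were aligned with TopHat2 2.0.9 to R64 (sacCer3), per the submitters' processing notes, and the counting tool is not given in the sources used here. The deposited tables hold raw counts per ORF, and the authors' RPKM, which were scaled by each library's total count without further normalization. Groups, media and kits were taken from the labels. The members and gene lists were chosen with earlier results of these data known.

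Counts were fitted with edgeR 4.0.16 (quasi-likelihood, TMM scaling, R 4.3.3) on 26 libraries of the 12 groups with replicates, which share 1 estimate of spread, for 6592 ORFs with a mean of at least 1 RPKM over the fitted libraries. P-values were adjusted by Benjamini-Hochberg over all tested ORFs and called under 0.05. Standard errors were taken from the F statistic, as the size of the fold change over its root. Named genes were the 12 largest changes in each direction among called ORFs with a symbol, at least 10 RPKM in the higher group, no overlap between the libraries of each medium and at least 90% of 50-base windows unique, plus members of the lists. ORFs whose YPD libraries held 0 counts had their mean RPKM in YPEG set against a floor of 3 counts. Alternatives were other scaling, filters and sets of libraries, limma 3.58.1 on log2(RPKM + 1), DESeq2 1.42.0, a replicate block and leaving out each library. The edgeR script was tested on simulated data. Total counts per library bound the precision, and 95% Wilson intervals of shares, and exact intervals of ratios of counts, cover counting error only. Sequences and motif matches came from RefSeq assembly R64.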

Additional observations from a re-analysis of the deposited data

Results flagged for a closer look

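In 6 listed genes both wild-type YPEG libraries lay on one side of both wild-type YPD libraries in RPKM, and the H3H113N libraries lay the opposite way. No share of all ORFs with this pattern is given, so the 6 genes are examples only. The difference in log2 fold change, H3H113N minus wild type, was tested with edgeR and was not called for any of them, with an adjusted p of 0.999925 each. It was 2.2179 for ENO1, an enolase with 2010 and 1588 RPKM in YPD and 526 and 721 in YPEG in wild type, and 1213 and 1190.0 in YPD and 2043 and 1381 in YPEG in H3H113N. TDH1, a glyceraldehyde-3-phosphate dehydrogenase, had a difference of 2.0843, and the cell wall gene TIR3 one of 1.3048. CTR3, a copper transporter, had a difference of −1.4748, with wild type at 0.63 and H3H113N at −0.85. For YHM2, a mitochondrial carrier, the difference was −0.8736, and for RRP46, an exosome subunit, −0.141. After TMM scaling the last 2 genes had the same sign in both strains, with YHM2 at −0.14 and −1.01 and RRP46 at −0.39 and −0.53.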

How the results depend on the processing

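The 1792 calls between YPEG and YPD in wild type were between 1010 and 1136 without any 1 of the 4 libraries, and stayed within 1.5 times under every other alternative run, from 1195 with only the groups carrying wild-type histone H3 to 2444 without scaling. The 756 calls against SC were 64 when only the groups compared were fitted, 397 with only groups carrying wild-type H3, and between 323 (without WT-YPEG replicate 1) and 1201 (without WT-SC replicate 3) on leaving out 1 library. The 1710 calls in H3H113N were between 573 (without H3H113N-YPEG replicate 1) and 1175 (without H3H113N-YPEG replicate 2) on leaving out 1 library, and between 1599 and 2325 under the other alternatives. The test of the difference between strains called 0 ORFs with edgeR under each alternative run and 1 with DESeq2. The labels do not say that a replicate number marks a shared culture or day. Between media, the differences between replicates correlated at −0.0056 (wild type, YPD with YPEG), 0.157 (wild type, YPEG with SC) and 0.179 (H3H113N, YPD with YPEG). Between strains they correlated at 0.654 in YPD and 0.124 in YPEG, a hint from the data that numbers mark something shared in YPD. The replicate block across media gave 1727 calls against YPD, 1189 against SC, 1599 in H3H113N and 0 for the difference, which was also 0 with a block within each medium, chosen after seeing the data. The cause of these moves was not tested. For the largest rises and falls taken by the naming rule, 312 comparisons with alternatives were made. Of these, 303 kept the call, 9 lost it and 0 reversed. The genes were picked from the same data for large, called changes without overlap between libraries, so this count is no independent check. Other list members are not in this count, and several of them lost their calls, as given with each gene. Of 1066 comparisons of the lists' counts of calls with their alternatives, 890 stayed within 1.5 times and 176 moved further.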

Other observations

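Further gene groups were described after their values were seen, so their counts are descriptions. All compare wild type in YPEG with YPD, where 27.2% of all ORFs were called. Of 10 purine synthesis genes, 7 fell and none rose, with a median log2 fold change of −1.54, and their share of counts was 0.448% and 0.374% in YPD and 0.254% and 0.235% in YPEG. ADE17, of the last steps of the pathway, was at −2.68 and was not called without WT-YPEG replicate 2. Of 30 genes for histidine, leucine, lysine, arginine and tryptophan, 9 fell and 1 rose, with 3 falls without WT-YPEG replicate 1 and 4 without WT-YPD replicate 2. Scaled by totals, 5 fell and 6 rose, so the direction of this list depends on the scaling. Of 20 ergosterol genes 10 fell and 1 rose. That count of falls was 6, 3, 1 and 4 without WT-YPD replicate 1, WT-YPD replicate 2, WT-YPEG replicate 1 and WT-YPEG replicate 2, in that order, and 2 when libraries were scaled by totals.

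Of 18 mitochondrial carriers, 9 rose and 2 fell, and together they took 0.136% and 0.192% of counts in YPD and 1.02% and 1.23% in YPEG. Of 33 autophagy genes 10 rose and 1 fell, with 5 rises without WT-YPD replicate 2 and 5 without WT-YPEG replicate 1, and 19 rises and 0 falls when libraries were scaled by totals. Of 28 peroxins 7 rose and 1 fell, with 3 rises without WT-YPD replicate 2, 3 without WT-YPEG replicate 2, 11 when only the groups compared were fitted, and 19 rises and 0 falls when libraries were scaled by totals. Of 27 mitochondrial protein import genes 7 rose and none fell, and 13 rose when libraries were scaled by totals. Of 33 proteasome genes 2 fell and none rose, with a median of −0.21 that turned to 0.33 when libraries were scaled by totals. Of 24 pheromone response genes 3 rose and 6 fell, and the median of −0.52 likewise turned to 0.04. Methionine and sulfate genes had 1 higher and 2 lower of 19, and seripauperins 1 higher of 24.

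Shorter ORFs were slightly higher in YPEG: the median log2 fold change against YPD in 4 equal groups of ORFs, from shortest to longest, was 0.18, 0.12, −0.04 and −0.11. Against SC, of the same kit, it was −0.05, −0.07, −0.11 and −0.04.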
